A study of Mus musculus with 32 samples.

Results

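The ATF4 branch of the integrated stress response was followed through 10 genes, chosen by symbol: the transcription factors Atf4, Ddit3 and Atf5, the feedback and stress-effector genes Trib3, Chac1 and Sesn2, and the amino acid enzymes Asns, Psat1, Phgdh and Shmt2. Of these, 9 had a row among the 27728 genes of the count table, and Phgdh was not analysed here. The genes were read in 32 RNA sequencing libraries of 9 groups, made from mouse progenitors sorted as Lin- cKit+ Sca1- cells, for a study of how much U2af1, a splicing factor, blood progenitors need.

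The 15 fetal libraries came from E14.5 liver. The flox control was U2af1(flox/flox) without Cre (n = 3), the heterozygous deletion was Vav1-Cre/U2af1(wt/flox) (n = 3) and the homozygous deletion was Vav1-Cre/U2af1(flox/flox) (n = 3), all in batch A as the labels name it. A further group was Vav1-Cre/U2af1(wt/S34F) (n = 4), all in batch B, and Vav1-Cre alone had 1 library in each batch. Vav1-Cre recombines floxed DNA in blood cells, so other liver cells of these embryos keep their alleles. The 17 adult libraries came from bone marrow. All of them carried Mx1-Cre, rTA and the transgene tgU2AF1(WT). The dose groups also had U2af1(flox/S34F), and were given polyinosinic-polycytidylic acid (pIpC), which switches on Mx1-Cre, and chow with doxycycline, which switches on the wild-type transgene. The doses of doxycycline were 1250 ppm in 4 libraries, 2500 ppm in 6 and 10000 ppm in 4. The adult controls (n = 3) had U2af1(wt/wt) and were untreated, so they differed from the dose groups in allele, pIpC and doxycycline at once. U2af1 itself was not analysed here, so no library's label was checked against it. The labels do not say whether replicates were separate animals or litters, and p-values measure the spread between these libraries.

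In the integrated stress response, kinases that sense amino acid shortage, unfolded protein, lack of heme or viral RNA phosphorylate eIF2, which lowers translation in general and raises translation of the Atf4 mRNA. ATF4, a bZIP factor, then binds composite C/EBP-ATF response elements (CARE) and raises transcription of genes for amino acid uptake and synthesis, tRNA charging and redox balance. Because ATF4 is controlled at translation, its mRNA need not follow its protein, and the mRNAs of its targets are the usual readout in expression data.

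Promoter stretches are shown for genes that hold the letters of the element through which ATF4 is known to act. RefSeq promoter windows (GRCm38.p6, 250 bases before to 50 after the annotated start) were found for all 10 members. The searched CARE letters were TGATGNAAN, on both strands. They occurred in 3 of 10 members, Asns, Chac1 and Trib3, and in 3.95% of 32851 windows of the same length. The stretches below run 5′ to 3′ on the strand of the gene, with the CARE match in capitals. Asns lies at chr6:7693214-7693242 on the minus strand, Chac1 at chr2:119351003-119351101 on the plus strand, and Slc7a11, the cystine transporter with the highest log2 fold change among the wider ATF4 targets in homozygous deletion against flox control, at chr3:50443615-50443724 on the minus strand.
Asns: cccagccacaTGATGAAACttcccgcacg
Chac1: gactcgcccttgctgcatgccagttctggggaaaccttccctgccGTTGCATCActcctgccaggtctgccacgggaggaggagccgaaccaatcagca
Slc7a11: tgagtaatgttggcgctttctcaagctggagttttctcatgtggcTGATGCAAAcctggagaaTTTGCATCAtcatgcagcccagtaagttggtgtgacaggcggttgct
The Chac1 match and one of the Slc7a11 matches read as the reverse complement. The Asns match lies 23 to 15 bases before the RefSeq start, and inside the gene as GENCODE M21 bounds it. In Trib3 the match TTTACATCA is on the reverse strand, 14 to 22 bases after the start. The same letters occurred in 5 of 13 tRNA synthetase genes with a window (Aars, Gars, Iars, Tars and Yars) and in Slc1a4 and Slc7a11 of 6 transporter genes. A match is a description of letters and not a measured binding site. The endoplasmic reticulum stress element, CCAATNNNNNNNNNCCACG, read by ATF6, was in 0 of 10 members, in 6 of 12 endoplasmic reticulum chaperone and XBP1 target genes with a window and in 0.119% of all windows. No window of a listed gene held both motifs.

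Total counts per library ran from 26.6 to 71.3 M (M is 1000000 counts). Levels are given as counts per 1000000 counts (CPM), scaled with TMM factors computed over all 32 libraries. A gene was called changed where edgeR's quasi-likelihood test gave an adjusted p under 0.05 (Benjamini-Hochberg, over all genes tested), and fold changes are on the log2 scale with their standard error (SE). Fetal genotypes were tested within batch A and adult groups among the 17 adult libraries. Levels set across stages or batches rest on the scaling alone, and stage and batch effects on them cannot be told apart from genotype. Ddit3, Psat1, Shmt2 and Atf5 overlap genes on the other strand (Mars and Gm4189, Gm3329, Ndufa4l2, and Nup62 and Il4i1), and Sesn2 overlaps Gm12981 on its own strand. The use of strand in counting is not given in the sources used here, so reads of those genes may be shared and their values are uncertain to that extent.

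Per kilobase of exon, the members fell into an abundant and a scarce set. In the flox control Shmt2 had a level of 163 ± 6.35 CPM per kilobase (SD, n = 3), Atf4 136 ± 12.8, Psat1 84.3 ± 7.28 and Asns 45.1 ± 13.1. Atf5 had a level of 11.1 ± 1.11 CPM per kilobase, Sesn2 6.72 ± 1.06 and Ddit3 6.29 ± 1.34. Chac1 had 0.915 ± 0.0348 and Trib3 0.539 ± 0.029 CPM per kilobase, the lowest levels of the 9. Trib3 and Chac1 also had the largest fold changes below.

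**Figure D1:**
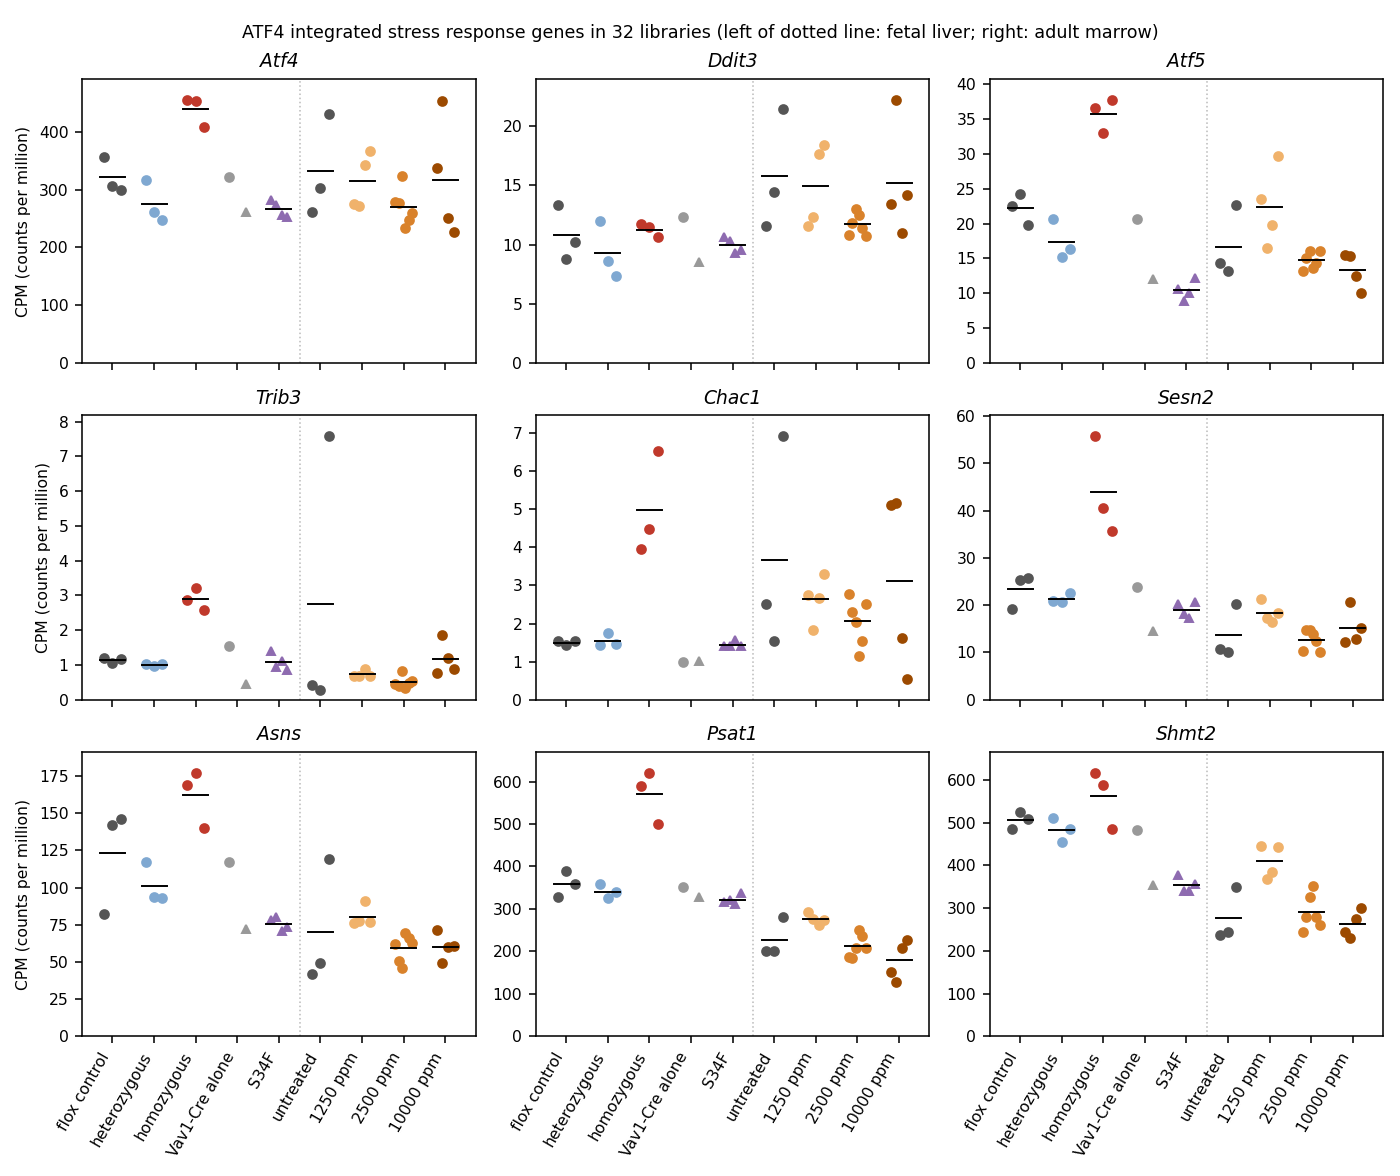
CPM of each member in every library (points; triangles are batch B, circles batch A or adult), with the group mean as a bar except for Vav1-Cre alone, whose 2 libraries are in different batches. The 3 homozygous deletion libraries had the highest mean of the 9 groups for 8 of the 9 members, across stages and batches. The share of all genes for which this holds was not computed. Untreated replicate 3 stood at 7.57 CPM for Trib3.

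The homozygous deletion had the highest mean level of the 9 groups for 8 of the 9 members. The exception was Ddit3, which was highest in the untreated adults at 15.8 ± 5.06 CPM (SD, n = 3). For Trib3 the homozygous mean of 2.88 ± 0.307 CPM was close to the 2.75 ± 4.17 CPM of the untreated adults. The share of all genes that were highest in the homozygous deletion was not computed. The order also crosses stages and batches, so the count of 8 is a description. Most neighbours in the order of group means lay within their spread: of 72 neighbouring pairs over the 9 genes, 6 were apart by more than 1 SD of each group. These included the homozygous deletion over the next group for Atf5, Psat1 and Sesn2.

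The homozygous deletion was set against the flox control, which lacks Cre. Loss of both U2af1 alleles and presence of Vav1-Cre cannot be told apart in this comparison. Of the 9 members, 6 were called higher and 0 lower, against 18.5% of the 12678 genes tested that were called higher. Chac1, Trib3, Sesn2, Atf5, Psat1 and Atf4 rose, in that order of size, and Asns, Ddit3 and Shmt2 did not pass. The median log2 fold change of the members was 0.63, and that of all genes tested was -0.02. DESeq2 also called 6 of the 9.

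Atf4 (chromosome 15, 80255184 to 80257541, plus strand), the factor the response is named for, had 455, 453 and 408 CPM in the homozygous deletion. The flox control had 356, 307 and 300 CPM, so all 3 deleted libraries were above all 3 controls. The log2 fold change was 0.42 ± 0.09 (SE), a 1.34-fold rise with an adjusted p of 0.00379 in edgeR. Atf5 (chromosome 7, 44812256 to 44816658, minus strand), a related bZIP factor that is also controlled through upstream reading frames, had 36.5, 32.9 and 37.7 CPM against 22.5, 24.2 and 19.8 CPM. Its groups did not overlap either, with a log2 fold change of 0.66 ± 0.12 and an adjusted p of 0.00156 in edgeR.

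Ddit3 (chromosome 10, 127290774 to 127296288, plus strand), which encodes CHOP, the factor linked to cell death under lasting stress, gave another picture. It had 11.7, 11.5 and 10.6 CPM in the homozygous deletion and 13.3, 8.81 and 10.2 CPM in the flox control. The deleted libraries lay within the range of the controls, and the log2 fold change was 0.03 ± 0.19 (adjusted p = 0.915 in edgeR). Ddit3 has a further entry of the same name on its strand in GENCODE M21, and the split of reads between the entries is not known.

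Trib3 (chromosome 2, 152337422 to 152344032, minus strand), a pseudokinase that binds ATF4 and AKT and acts in feedback, had 2.87, 3.2 and 2.58 CPM in the homozygous deletion, from 132, 179 and 83 counts. The flox control had 1.19, 1.07 and 1.18 CPM, from 75, 45 and 70 counts. All deleted libraries were above all controls, with a log2 fold change of 1.30 ± 0.20, or 2.46-fold (adjusted p = 0.000673 in edgeR). Chac1 (chromosome 2, 119351229 to 119354381, plus strand), an enzyme that breaks down glutathione, had 3.95, 4.48 and 6.53 CPM against 1.53, 1.43 and 1.53 CPM. It showed the largest rise of the 9, 3.25-fold, with a log2 fold change of 1.70 ± 0.24 (adjusted p = 0.000318 in edgeR). Sesn2 (chromosome 4, 132492032 to 132510501, minus strand), a leucine sensor that restrains mTORC1 and is also a p53 target, had 55.7, 40.6 and 35.8 CPM against 19.1, 25.3 and 25.7 CPM. The rise was 1.85-fold, with a log2 fold change of 0.89 ± 0.16 (adjusted p = 0.00135 in edgeR).

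Among the enzymes, Psat1 (chromosome 19, 15904678 to 15947337, minus strand), the transaminase of serine synthesis, had 589, 620 and 500 CPM in the homozygous deletion and 328, 390 and 359 CPM in the flox control. The groups did not overlap, and the log2 fold change of 0.63 ± 0.08 (adjusted p = 0.000212 in edgeR) had the smallest adjusted p of the 9 members. Asns (chromosome 6, 7675169 to 7693254, minus strand), asparagine synthetase and a standard ATF4 target, had 169, 177 and 140 CPM against 82.2, 142 and 146 CPM. Flox control replicate 3 was the low one, the groups overlapped, and the log2 fold change of 0.36 ± 0.19 did not pass (adjusted p = 0.151 in edgeR). Shmt2 (chromosome 10, 127517123 to 127522444, minus strand), the mitochondrial enzyme that turns serine into glycine, had 616, 588 and 485 CPM against 485, 524 and 508 CPM, with overlap and a log2 fold change of 0.12 ± 0.08 (adjusted p = 0.243 in edgeR).

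**Figure D2:**
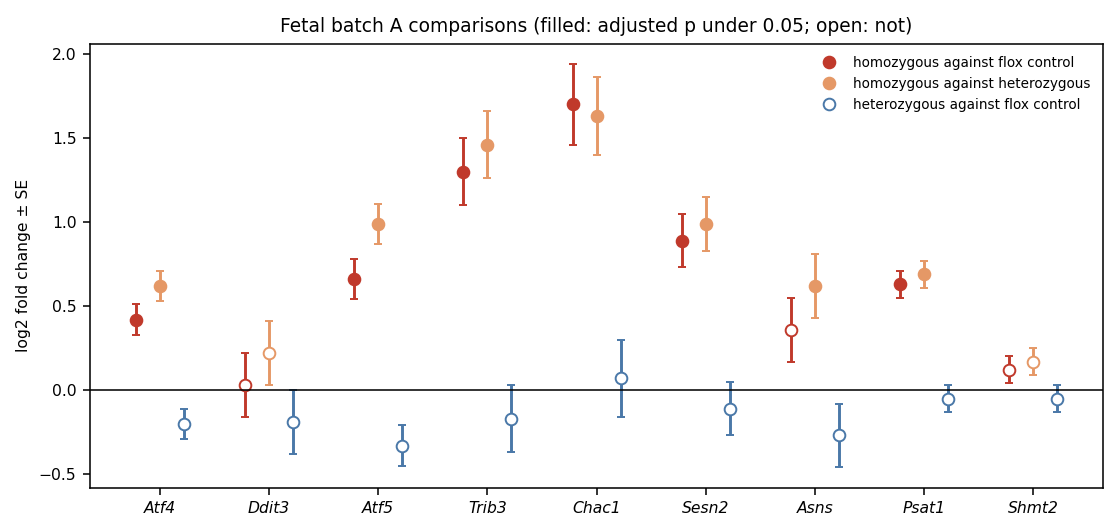
Log2 fold change ± SE of each member in the 3 comparisons of batch A, with n = 3 libraries per group. Chac1 (1.70) and Trib3 (1.30) lie highest in homozygous deletion against flox control, and in heterozygous deletion against flox control the values lie between -0.33 and 0.07 with none called.

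Markers of other cells moved with this result. The summed level of 9 hepatocyte markers was 11.6 to 30.5 CPM in the homozygous deletion and 101 to 635 CPM in the flox control, and all 9 were called lower. Macrophage markers summed to 80.6 to 110 against 368 to 414 CPM, with 9 of 10 lower and Vcam1 higher, and B cell markers summed to 24.4 to 26.6 against 58.8 to 119 CPM. Erythroid markers summed to 335 to 390 against 562 to 945 CPM, and 3 of 5, Ermap, Alas2 and Epor, were called lower. Defining markers at 0 included Cd5l and Marco, in 2 homozygous libraries, and Ahsg, in 1. Within the gate itself, Kit had a log2 fold change of -0.95 ± 0.10 and Cd34 of -0.71 ± 0.14, and 5 of 6 granulocyte markers were called higher. Reads of the Y-linked gene Gm29650 were present in 3 of 3 homozygous, 1 of 3 heterozygous and 2 of 3 flox control libraries. In bulk libraries, fewer cells of a type and less RNA per cell cannot be told apart. The mean hepatocyte marker level, in log2 CPM, was 2.825 to 5.415 in the flox control and -0.891 to 1.07 in the homozygous deletion. The groups did not overlap in it, so this covariate and genotype are hard to tell apart. With that level as a covariate, 4 of 9 members were called higher in edgeR, against 488 of 12678 genes. The log2 fold changes were then 1.61 ± 0.25 for Sesn2, 1.46 ± 0.24 for Asns, 1.01 ± 0.13 for Psat1 and 0.45 ± 0.13 for Shmt2, while Chac1 (0.99 ± 0.49), Trib3 (1.30 ± 0.47), Atf5 (0.86 ± 0.26) and Atf4 (0.45 ± 0.19) kept a positive value but no longer passed. The part of macrophages, B cells, erythroid cells, granulocytes and sex in the result was not tested.

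The heterozygous deletion was set against the flox control as well, and again allele and Vav1-Cre differed together. None of the 9 members was called by edgeR, against 0.0316% of all genes, 2 of 9 had an unadjusted p under 0.05, and DESeq2 called 0. Atf4 had 317, 262 and 248 CPM in the heterozygous deletion, which overlapped the flox control, and a log2 fold change of -0.20 ± 0.09 (adjusted p = 0.56 in edgeR). Atf5 had 20.7, 15.2 and 16.3 CPM, with a log2 fold change of -0.33 ± 0.12 (adjusted p = 0.465 in edgeR), the lowest value of the 9. Chac1 had 1.44, 1.74 and 1.47 CPM and the only positive value, 0.07 ± 0.23 (adjusted p = 0.953 in edgeR). Without flox control replicate 3, the count of members called became 1, Asns, with a log2 fold change of -0.49 ± 0.10 (adjusted p = 0.0368 in edgeR). Of all 13102 genes tested in that fit, 232 were called lower.

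Both deletion groups carry Vav1-Cre, so their direct comparison holds the Cre constant. The homozygous deletion was higher for 7 of 9 members, against 19.8% of all genes called higher. The log2 fold changes were 1.63 ± 0.23 for Chac1, 1.46 ± 0.20 for Trib3, 0.99 ± 0.16 for Sesn2, 0.99 ± 0.12 for Atf5, 0.69 ± 0.08 for Psat1 and 0.62 ± 0.09 for Atf4. Their adjusted p-values in edgeR ran from 0.000124 for Psat1 to 0.000642 for Sesn2, and their groups did not overlap. Asns was the added call: its heterozygous libraries had 117, 93.6 and 93 CPM, all below the homozygous ones, with a log2 fold change of 0.62 ± 0.19 (adjusted p = 0.0205 in edgeR). That call was lost in 5 of 14 alternatives, with adjusted p-values up to 0.0984. Ddit3 (0.22 ± 0.19) and Shmt2 (0.17 ± 0.08) did not pass. This comparison and the one with the flox control share the homozygous libraries. The hepatocyte markers were closer here, at 49.2 to 120 CPM in the heterozygous deletion. Their mean level in log2 CPM was 1.617 to 3.094 there and -0.891 to 1.07 in the homozygous deletion. The groups did not overlap, so this covariate and genotype are again hard to tell apart. With that level as a covariate 8 of 9 members were called higher, all but Ddit3, against 1935 of 12678 genes. Without it, 9 of 10 macrophage markers, 4 of 4 B cell markers, Kit and Cd34 were called lower. Vcam1 and 5 of 6 granulocyte markers were called higher. Their part was not tested.

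The wider pathway was read through 7 lists of 95 tested genes, of which 35 rose and 12 fell when homozygous deletion was set against flox control. Of all genes, 18.5% were called higher and 22.4% lower. With the hepatocyte covariate 18 of the 95 were called higher and 1, Sesn3, lower, against 488 and 758 of 12678 genes. The endoplasmic reticulum chaperones and XBP1 targets rose most broadly, 12 of 15, with a median log2 fold change of 0.60. Sdf2l1 (0.81 ± 0.15) and Hsp90b1, or GRP94 (0.75 ± 0.09), were the highest. Hspa5, or BiP, the chaperone that gates the unfolded protein sensors, had a log2 fold change of 0.56 ± 0.14. With the hepatocyte covariate 0 of these 15 passed in edgeR, 5 had an unadjusted p under 0.05, and their median was 0.44. DESeq2, without that covariate, called 12. Against the heterozygous deletion, 13 of the 15 were called higher in edgeR, and 10 with the covariate, with a median of 0.49. Of the 95 genes, 46 rose and 8 fell in that comparison, and 45 and 6 with the covariate. Of 12678 genes, 2513 rose and 2845 fell there, and 1935 and 2077 with the covariate.

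Of 20 tRNA synthetase and export genes tested, 7 rose and 2 fell. Aars and Tars, for alanine and threonine, rose by 0.40 ± 0.08 each, and Vars and Qars, for valine and glutamine, had log2 fold changes of -0.28 ± 0.06 and -0.24 ± 0.06. Of 15 genes of eIF2 and its regulators, 5 rose and Eif2ak4 fell. Eif2ak4 encodes GCN2, the kinase that senses uncharged tRNA, and had a log2 fold change of -0.26 ± 0.06. Eif2b1, a subunit of the exchange factor that phosphorylated eIF2 blocks, rose by 0.34 ± 0.08, and Eif2s3x, an X-linked subunit of eIF2, by 0.39 ± 0.13.

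Of 10 amino acid transporters, Slc7a11, which imports cystine, rose from 5.56 ± 0.509 to 22.4 ± 5.01 CPM (SD, n = 3 each), with a log2 fold change of 1.98 ± 0.18 (adjusted p = 3.03e-05 in edgeR). It carries the pair of CARE matches printed above. Slc38a2, or SNAT2, a neutral amino acid carrier, had -0.32 ± 0.08 and was the only transporter called lower. Of 13 enzymes of serine, folate, proline and transsulfuration metabolism, 2 rose and 4 fell. Mthfd2, the mitochondrial folate enzyme, rose by 0.96 ± 0.08 and Psph, the last step of serine synthesis, by 0.26 ± 0.08. Cth, the enzyme that makes cysteine from cystathionine, had -1.28 ± 0.41 and Pycr1, of proline synthesis, had -0.74 ± 0.17. The median of the list was -0.03. With the hepatocyte covariate 2 of the 13 were called higher and 0 lower in edgeR, the median was 0.44 and Cth had 0.97, with adjusted p = 0.368 in edgeR.

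Of 14 other ATF4 partners and targets, 4 rose and 4 fell. Jdp2, a bZIP repressor, rose by 0.95 ± 0.12 and Stc2, a secreted glycoprotein, by 0.90 ± 0.09. Trib2, a relative of Trib3, had -2.35 ± 0.31 and Sesn3, a relative of Sesn2, had -0.95 ± 0.13, so the paralogues moved in opposite directions to the members. Of 8 mitochondrial chaperones and proteases, 4 rose, led by Hspd1, or HSP60, with 0.45 ± 0.09, and Clpp, with 0.30 ± 0.08. In the heterozygous deletion against the flox control, edgeR called 0 of the 95 genes, 5 had an unadjusted p under 0.05, and DESeq2 called 0.

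**Figure D3:**
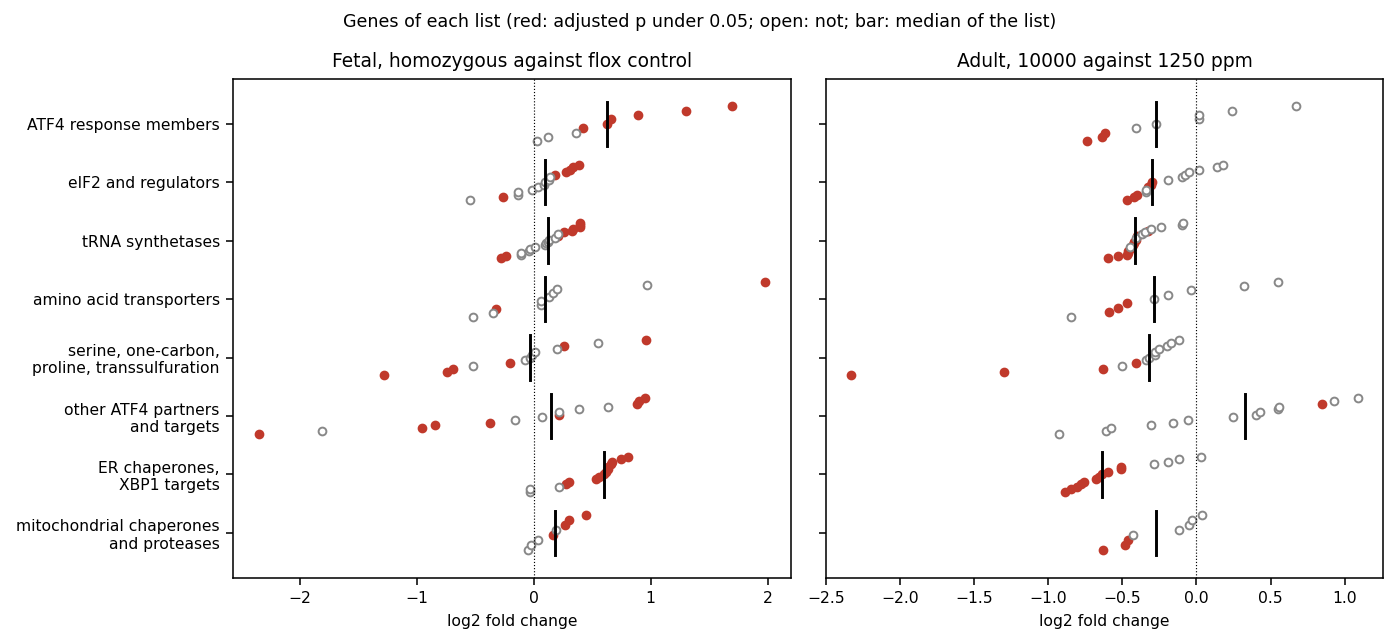
Log2 fold change of each tested gene of the members and of 7 wider lists, in homozygous deletion against flox control (left) and in adult 10000 against 1250 ppm (right), with list medians as bars. The endoplasmic reticulum list has a median of 0.60 on the left and -0.64 on the right, and Slc7a11 reaches 1.98 on the left.

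The S34F libraries, from batch B, could be compared only with 1 Vav1-Cre library of that batch, so no test was made. None of the 9 members was at least 2-fold away in all 4 libraries, against 1.27% of the 11823 genes that averaged at least 10 counts. In 4 of 9 members, Ddit3, Trib3, Chac1 and Sesn2, all 4 libraries were above the control, against 26.6% of those genes. Trib3 had 1.4, 0.931, 1.12 and 0.849 CPM in the S34F libraries and 0.458 CPM in the control, from 15 counts, with ratios of 1.85 to 3.06, and without S34F replicate 4 it was at least 2-fold away in all that were left. Chac1 had 1.4, 1.41, 1.56 and 1.4 CPM against 1.01 CPM. Sesn2 had 20.2, 18.2, 17.3 and 20.6 CPM, which is 1.2 to 1.43 times the control. Atf4 itself had 282, 274, 256 and 252 CPM, on both sides of the control at 262 CPM. The Vav1-Cre library of batch A had more of Trib3 and Sesn2 than any S34F library, at 1.55 and 23.9 CPM, and less of Chac1, at 0.983 CPM. Library and batch cannot be told apart.

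In the adults, the dose groups were compared with the untreated wild type, and 1 untreated library decided much of the result. Untreated replicate 3 had 7.57 CPM of Trib3, from 377 counts, where replicates 1 and 2 had 0.417 and 0.268 CPM, from 20 and 15 counts. It had 6.91 CPM of Chac1 against 2.52 and 1.54 CPM, and 119 CPM of Asns against 41.6 and 49 CPM. These 3 of 9 members were at least 2-fold above both other untreated libraries, against 2.80% of 11756 genes, and each was above the range of all 16 other adult libraries, against 10.1% of genes. Of the wider lists, Slc1a4 (15.5 CPM against 1.42 and 1.98), Slc6a9 and Slc7a11 among 9 transporters, Cth and Mthfd1 among 13 enzymes, and Nupr1 (9.84 CPM against 0.626 and 0.428) and Atf3 among 14 other targets were also at least 2-fold above both. None of the 15 endoplasmic reticulum genes and none of the 20 synthetase genes was. Above all 16 other adult libraries were 8 of the 20 synthetase genes, 6 of 15 genes of eIF2 and its regulators and 1 of the 15 endoplasmic reticulum genes. That library was the only adult one with 0 reads of the Y-linked Gm29650, and its erythroid markers summed to 217 CPM against 59.5 and 62.2. Their part in these levels was not tested.

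With all 3 untreated libraries, edgeR called 0 of 9 members at 10000 ppm (background 1.27%) and 0 of 9 at 2500 ppm (background 0.487%). At 10000 ppm 0 of 9 and at 2500 ppm 1 of 9 had an unadjusted p under 0.05, and DESeq2 called 0 in both. Trib3 had log2 fold changes of -1.22 ± 0.75 at 10000 ppm, -2.43 ± 0.68 at 2500 ppm and -1.89 ± 0.76 at 1250 ppm, with adjusted p-values of 0.347, 0.108 and 0.105 in edgeR. Without untreated replicate 3 they turned to 1.79 ± 0.44, 0.56 ± 0.40 and 1.09 ± 0.43, with adjusted p-values of 0.121, 0.622 and 0.108. No direction is therefore given for Trib3 against untreated mice.

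At 1250 ppm, 1 of 9 members was called, against 11.4% of 13338 genes. Shmt2 had 445, 368, 385 and 442 CPM at 1250 ppm and 237, 244 and 350 CPM in the untreated mice, with no overlap. The log2 fold change was 0.57 ± 0.15 (adjusted p = 0.0268 in edgeR). Leaving out 1250 ppm replicate 1 or 5, or untreated replicate 1 or 2, ended that call, with adjusted p-values from 0.072 to 0.142. Without untreated replicate 3, which leaves replicates 1 and 2, 3 of 9 were called higher, against 689 of 13846 genes, and all 9 had a positive value. The called ones were Asns with 0.81 ± 0.17, Sesn2 with 0.80 ± 0.22 and Shmt2 with 0.75 ± 0.15 (adjusted p = 0.0186, 0.038 and 0.0153 in edgeR). Replicate 3 was above both others for all 9 members, from 1.41 (Psat1) to 18.1 (Trib3) times the higher one. Leaving out a library set apart by these same genes raises every value, so this fit gives no separate result for 1250 ppm. Asns had 76.1, 77.8, 91.3 and 76.9 CPM at 1250 ppm, above untreated replicates 1 and 2 and below replicate 3. Of the 94 wider genes tested, 13 were called higher and Ppp1r15b lower at 1250 ppm with all 3 untreated libraries. Of all 13338 genes, 902 were called higher and 622 lower in that fit. The higher ones included Bcat1 (2.26 ± 0.47), a branched-chain transaminase, Cbs (1.62 ± 0.37), the entry enzyme of transsulfuration, and Aars (0.49 ± 0.13), the alanine synthetase. Cbs was scarce, at 0.271, 0.143 and 0.261 CPM in the untreated mice and at most 0.815 CPM in any adult library, so its fold is imprecise. Markers of other cells moved here as well. Of 9 macrophage markers tested, 4 were called higher at 1250 ppm, Cd5l, C1qa, C1qb and C1qc, while the summed level of the list was lower, at 294 to 370 CPM against 543 to 552 CPM. B cell markers summed to 38.2 to 50.6 CPM at 1250 ppm and 18.4 to 25.4 CPM in the untreated mice. Their part in these values was not tested.

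**Figure D4:**
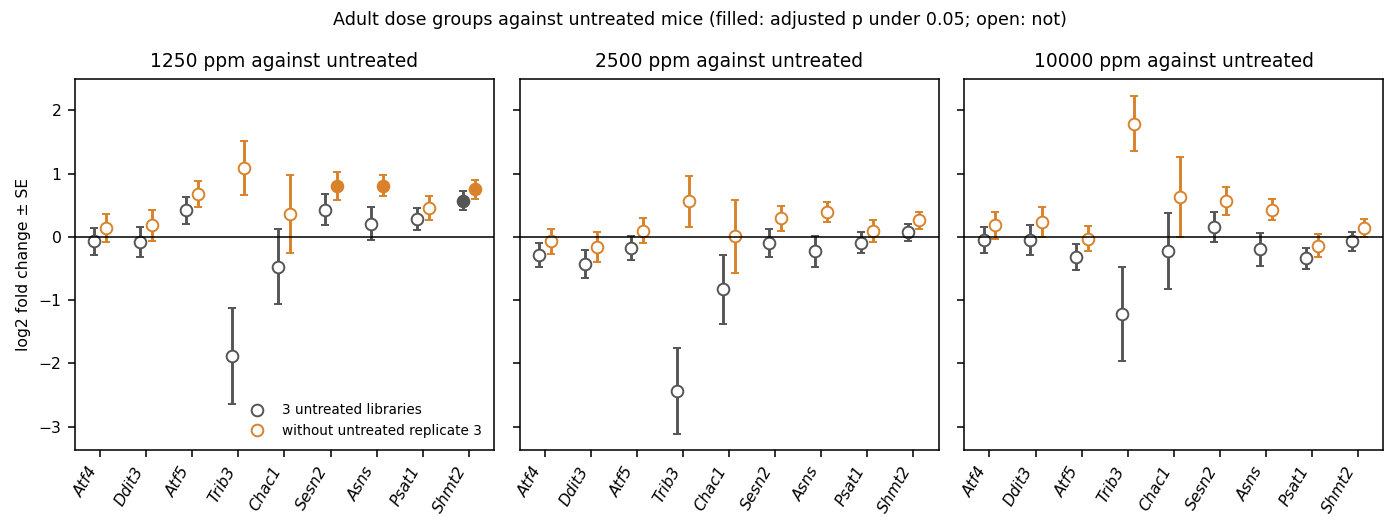
Log2 fold change ± SE of each member in each dose group against untreated mice, with all 3 untreated libraries (grey) and without untreated replicate 3 (orange). Trib3 moves from -1.89 to 1.09 at 1250 ppm, and Asns and Sesn2 pass the threshold there only without that library. It was above both other untreated libraries for every member, so leaving it out raises every value.

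The dose groups share genotype and pIpC and differ in doxycycline, so 10000 was compared with 1250 ppm. The level of the U2AF1 transgene was not analysed here, so effects of the drug itself and of the transgene cannot be told apart. Of 9 members, 3 were called lower and 0 higher at 10000 ppm, against 10.6% of 13338 genes called lower. Atf5 had 15.5, 15.3, 12.5 and 9.99 CPM at 10000 ppm and 23.5, 16.5, 19.8 and 29.6 CPM at 1250 ppm, without overlap, and a log2 fold change of -0.74 ± 0.20 (adjusted p = 0.0173 in edgeR). Shmt2 had 245, 229, 274 and 301 CPM at 10000 ppm, all below the 1250 ppm libraries, with -0.64 ± 0.14 (adjusted p = 0.00711 in edgeR). Psat1 had 152, 129, 208 and 227 CPM against 293, 277, 263 and 273 CPM, with -0.62 ± 0.16 (adjusted p = 0.0152 in edgeR).

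Asns was also lower without overlap, at 71.2, 49.3, 59.8 and 61 CPM at 10000 ppm, but did not pass, with -0.41 ± 0.24 (adjusted p = 0.256 in edgeR). Trib3 had 0.765, 1.87, 1.2 and 0.889 CPM at 10000 ppm and 0.696, 0.685, 0.888 and 0.685 CPM at 1250 ppm, which overlapped, and a log2 fold change of 0.67 ± 0.71 (adjusted p = 0.554 in edgeR). At 10000 ppm Chac1 ran from 0.551 to 5.16 CPM and Atf4 from 227 to 454 CPM, the widest spreads of the dose groups for both genes. The called members were thus Psat1, Shmt2 and Atf5, and Atf4, Ddit3, Trib3, Chac1, Sesn2 and Asns were not called. With only the compared groups in the fit, 1 member, Shmt2, was called lower, against 619 of 12177 genes.

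Over the 14 dosed libraries, 3 of 9 members fell with dose, against 5.32% of 12849 genes. Per doubling of the dose the log2 change was -0.21 ± 0.06 for Atf5, -0.18 ± 0.05 for Psat1 and -0.18 ± 0.05 for Shmt2 (adjusted p = 0.0484, 0.0357 and 0.0299 in edgeR). The call was lost in 16 of 20 alternatives for Atf5, with RLE factors among them, and in 7 of 20 each for Psat1 and Shmt2. At 2500 ppm (n = 6) the lowest, median and highest values were 13.2, 14.7 and 16.1 CPM for Atf5, 185, 208 and 251 CPM for Psat1 and 244, 279 and 351 CPM for Shmt2. The 3 medians were below the lowest 1250 ppm library of each gene. Values at 2500 and 10000 ppm overlapped for all 3 genes, so the slope alone does not show a fall at each step. The count of called members became 0 without any 1 of the 1250 ppm libraries or without 10000 ppm replicate 1 or 2.

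In the same comparison of 10000 with 1250 ppm, 40 of 94 wider genes were lower and 1 higher, against 1415 and 1005 of 13338 genes. Of 20 synthetase and export genes, 13 were lower, led by Tars (-0.60 ± 0.13) and Aars (-0.53 ± 0.12). Of 15 endoplasmic reticulum genes, 11 were lower, led by Creld2 (-0.89 ± 0.15) and Sdf2l1 (-0.85 ± 0.14). Of 13 enzymes, 4 were lower, with Bcat1 at -2.33 ± 0.42 and the scarce Cbs, at most 0.815 CPM in any adult library, at -1.30 ± 0.33. Of 9 transporters, Slc7a5 (-0.59 ± 0.18), Slc7a1 and Slc38a1 were lower, and of 15 genes of eIF2 and its regulators, 6 were lower, led by Eif2b1 (-0.47 ± 0.12) and Eif2b4 (-0.42 ± 0.10). Ddit4, or REDD1, which restrains mTORC1, was the 1 higher gene, with 0.85 ± 0.26. Markers of the progenitor gate, of granulocytes and of erythroid cells moved with dose as well. Those of the gate summed to 1413 to 1632 CPM at 10000 ppm and 910 to 1241 CPM at 1250 ppm, without overlap, and Kit (0.44 ± 0.14), Itgam and Ly6g were called higher. Granulocyte markers summed to 16998 to 64804 CPM at 10000 ppm and 30874 to 38841 CPM at 1250 ppm, and erythroid markers to 138 to 789 against 50.3 to 173 CPM, and both sums overlapped. Ltf (4.87 ± 1.10), Ngp and Camp, of late granulocytes, were higher and Ctsg, of early ones, was lower. Their part in the dose differences was not tested.

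The members differed in how closely they followed Atf4 across libraries. Over the 9 batch A libraries, Pearson's r of log2 CPM with Atf4 was 0.94 for Atf5, 0.92 for Trib3, 0.88 for Psat1 and 0.81 for Chac1. It was 0.80 for Sesn2, 0.73 for Shmt2, 0.72 for Ddit3 and 0.66 for Asns. Over the 17 adult libraries it was 0.85 for Ddit3, 0.82 for Chac1, 0.65 for Trib3, 0.57 for Atf5 and 0.52 for Sesn2. There it was 0.27 for Asns, 0.07 for Shmt2 and -0.22 for Psat1. Without untreated replicate 3 it was 0.80, 0.76, 0.50, 0.50, 0.42, -0.02, -0.02 and -0.44 for these 8 genes, in the order of the adult values. The enzymes Psat1 and Shmt2 followed each other in both sets, with r of 0.82 and 0.84. These values share libraries, depth and group differences and are a description. By the smaller of both r, the genes most like Atf4 were Sgk1, Plk3 and Eif1, those most like Ddit3 were Maff, Eif1 and Ppp1r15a, and those most like Asns were Prdx6, Dhx29 and Psmc2. For Sgk1 both values were high, 0.92 in batch A and 0.90 in the adults, and for Ppp1r15a, or GADD34, which directs a phosphatase to eIF2, they were 0.77 and 0.75.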

How the data were processed

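RNA was measured in 32 libraries, and the authors deposited unscaled gene counts by Ensembl ID, made from reads mapped with HISAT2 2.1.0 to GRCm38, per the labels' design text. The counting tool, annotation release, strand use and gene filter are not given in the sources used here. Symbols and coordinates came from GENCODE M21, which matched 27668 of 27728 IDs. Genes were kept with filterByExpr, scaled by TMM within each set of libraries tested and compared in 8 contrasts by the quasi-likelihood test of edgeR 4.0.16, with p-values adjusted by Benjamini-Hochberg over all genes. Log2 CPM used a prior count of 2, and CPM levels used TMM factors over all 32 libraries. The test was checked on simulated data.

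Every member is named. Of the other lists, counts are given, with up to 2 called genes per direction by fold change. Hspa5, Slc38a1, Kit, Cd34 and further genes named beside markers or untreated replicate 3 were chosen after their values were seen. The members and lists were chosen with earlier results of these data known. Replicate numbers are shared between groups. Over same-numbered libraries, the correlation of deviations passed 0.1 in 3 of 7 pairs in batch A and 7 of 19 in the adults, so the numbers were not taken as pairs. Alternatives were DESeq2 1.42.0, RLE factors, other filters, a replicate block, a batch covariate, marker and Y-linked covariates, only the compared groups, dose ranks and leaving out each replicate. Splicing was not analysed here.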

Additional observations from a re-analysis of the deposited data

Results flagged for a closer look

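In the 4 groups of 4 or more libraries, 36 sets of values of the members were examined, and in 3 of them 1 library lay far from the rest. Chance gives about 1 in 20. Trib3 in replicate 4 at 1250 ppm was at 0.888 CPM, where the other 3 libraries lay between 0.685 and 0.696 CPM. Asns in the same library was at 91.3 CPM, where the others lay between 76.1 and 77.8 CPM. Chac1 in S34F replicate 3 was at 1.56 CPM, where the others lay between 1.4 and 1.41 CPM. The groups of 3, which include the untreated adults, were too small for this check.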

How the results depend on the processing

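In the homozygous deletion the count of members called lay between 4 and 7 against the flox control and between 6 and 8 against the heterozygous deletion over all alternatives. At 1250 ppm against untreated, the replicate block gave 0 members, the Y-linked covariate 4 and leaving out single replicates 0 to 3. In 10000 against 1250 ppm, the fit of only the compared groups gave 1. In the dose trend the replicate block gave 0, with adjusted p-values in edgeR of 0.0883 for Psat1, 0.0957 for Shmt2 and 0.15 for Atf5, and leave-one-out 0 to 3. Leave-one-out gave 0 to 1 in the heterozygous deletion against the flox control and 0 to 1 for S34F. The block also ended the calls of Asns in homozygous against heterozygous (0.63, adjusted p = 0.0984), and of Atf5 in 10000 against 1250 ppm (-0.68, adjusted p = 0.0736). Of libraries with a same-numbered partner, 5 of 8 in batch A and 8 of 16 in the adults were closest to their own number. Over all alternatives 1 of 9 members turned direction in homozygous against flox control, 5 in heterozygous against flox control, 7, 7 and 5 at 10000, 2500 and 1250 ppm against untreated, 3 in 10000 against 1250 ppm and 3 in the trend. These included Ddit3 in homozygous against flox control, -0.06 with the block, -0.07 with the hepatocyte covariate and -0.09 to 0.22 leaving out single replicates, and Chac1 in heterozygous against flox control, -0.28 with that covariate and -0.03 to 0.13 leaving out single replicates. In the latter comparison that covariate also gave 0.31 for Asns, 0.28 for Sesn2, 0.14 for Psat1 and 0.12 for Shmt2. Without untreated replicate 3, the values at 10000 ppm were 0.18 for Atf4, 0.23 for Ddit3, 0.63 for Chac1 and 0.14 for Shmt2. In the adults the Y-linked covariate sets apart only untreated replicate 3. Against untreated mice it therefore repeats leaving that library out and is not a separate check. With the Y-linked covariate, Trib3 was 1.78, 0.57 and 1.11 and Asns 0.42, 0.39 and 0.83 at 10000, 2500 and 1250 ppm against untreated. Leaving out single replicates against untreated, Trib3 ran from -1.74 to 1.79 at 10000 ppm, -2.96 to 0.56 at 2500 ppm and -2.43 to 1.09 at 1250 ppm, and Asns from -0.45 to 0.43, -0.49 to 0.39 and -0.07 to 0.81. Sesn2 at 10000 ppm ran from -0.03 to 0.56 and Shmt2 at 2500 ppm from -0.03 to 0.26. The causes were not tested. The Y-linked covariate could not be fitted to the trend, since all 14 dosed libraries have these reads. Counts of all genes called moved by more than 1.5 times. Homozygous against flox control gave 5194 genes, and 1246 with the hepatocyte covariate. Over all alternatives, heterozygous against flox control (4 genes) ran from 0 to 269, 10000 ppm (169) from 0 to 1055, 2500 ppm (65) from 0 to 567 and 1250 ppm (1524) from 68 to 3165 against untreated, 10000 against 1250 ppm (2420) from 1052 to 2983 and the trend (1376) from 33 to 2240. Trib3 and Chac1 rest on 15 to 377 and 31 to 344 counts per library, so their folds are the least precise of the 9.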
